A study of Rattus norvegicus with 8 samples.

Results

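Carbonic anhydrases are the enzymes that interconvert carbon dioxide and bicarbonate, releasing or taking up a proton each time. The family holds cytosolic forms, mitochondrial forms, forms anchored at the cell surface, a secreted form and a few related proteins without catalytic activity. In enamel, growth of mineral crystals releases acid, and the ameloblasts of the maturation stage are known to supply bicarbonate to neutralise it, which is why these enzymes are studied in this tissue. Among the 22523 probes of the array table, 15 carried a carbonic anhydrase symbol (Ca or Car followed by a number and an optional a or b, after any ending such as "predicted" was removed), and these 15 probes stood for 13 of the 21527 genes on the array, because Car8 and Car14 had 2 probes each. All 15 were annotated as carbonic anhydrases, and the rule used the symbol and no measured value.

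The samples were total RNA of mandibular incisor enamel organs from 4 male Wistar rats, of the Hannover stock according to the methods, aged 4 weeks. Each rat gave 1 secretory-stage sample, from the stretch where ameloblasts lay down enamel matrix, and 1 maturation-stage sample, from the stretch where that matrix is removed and the mineral hardens. No animal was treated or genetically modified. Each of the 8 samples was read on its own Illumina RatRef-12 v1 array, on which a transcript is measured by many beads carrying the same probe. An enamel organ holds supporting cells and vessels beside the ameloblasts, and in such bulk samples fewer cells of a type cannot be told apart from less RNA per cell.

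Deposited signals summed to 13355100 to 16122700 per maturation-stage array and to 11881700 to 12046800 per secretory-stage array, and 11164 to 11450 and 10667 to 10941 probes respectively had a detection p below 0.05, the level at which a probe is called detected here. A single label, the source name, put maturation replicates 2, 3 and 4 in the secretory stage, while their titles, descriptions and tissue labels named the maturation stage. The marker genes of the stages were read to check this. Klk4, the protease that clears enamel matrix in the maturation stage, had normalized log2 signals of 11.84, 12.03, 11.74 and 12.10 in maturation replicates 1 to 4 (probe ILMN_1370608) and of 4.61, 4.66, 4.66 and 5.03 in secretory replicates 1 to 4, where this probe was not detected. A second Klk4 probe, ILMN_2040219, had 13.12 to 13.45 in the maturation stage and 5.14 to 6.47 in the secretory stage, where all 4 arrays detected it. Enam, the matrix protein enamelin, had 9.08, 5.17, 5.53 and 8.22 in the maturation stage and was at 11.94 to 12.03 on all secretory-stage arrays. Mmp20 and Dspp were likewise lower on every maturation-stage array than on any secretory-stage array. The matrix genes Amelx and Ambn stayed bright in the maturation stage, at 13.83 to 14.81 and 13.96 to 14.53. Their secretory-stage signals were 14.87 to 14.98 and 14.49 to 14.66. All 4 arrays titled as maturation stage thus carried the maturation marker.

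The comparison asked which carbonic anhydrases differ in mRNA level between the stages. Values below are log2 signals after background correction and quantile normalization, differences are maturation minus secretory on that log2 scale, and a probe was called when limma's adjusted p (Benjamini-Hochberg over all 22523 probes) was below 0.05 and the fold change at least 1.8. The 3 isoforms Car6, Ca2 and Ca5b rose in the maturation stage. Car6, the secreted isoform, rose 102-fold, Ca2, the fast cytosolic isoform, rose 12.1-fold and Ca5b, a mitochondrial isoform, rose 2.42-fold. No carbonic anhydrase probe was called lower. Of the 15 probes, 3 (20%) were therefore called higher, where 4.6% of all probes on the array were called higher, and 0 were called lower, where 3.15% of all probes were. Only 9 of the 15 were detected on any array and 8 on at least 4 arrays. The 3 calls were 37.5% of those 8, against 9.19% of the 11233 probes of the array detected on at least 4 arrays; this detection requirement favours probes that are high in 1 stage. The median difference was 0.07 over the 15 probes, 6 of them undetected on every array, and -0.01 over all probes. Under the same detection requirement it was 0.57 over the 8 and -0.05 over the 11233, given as a description only.

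**Figure D1:**
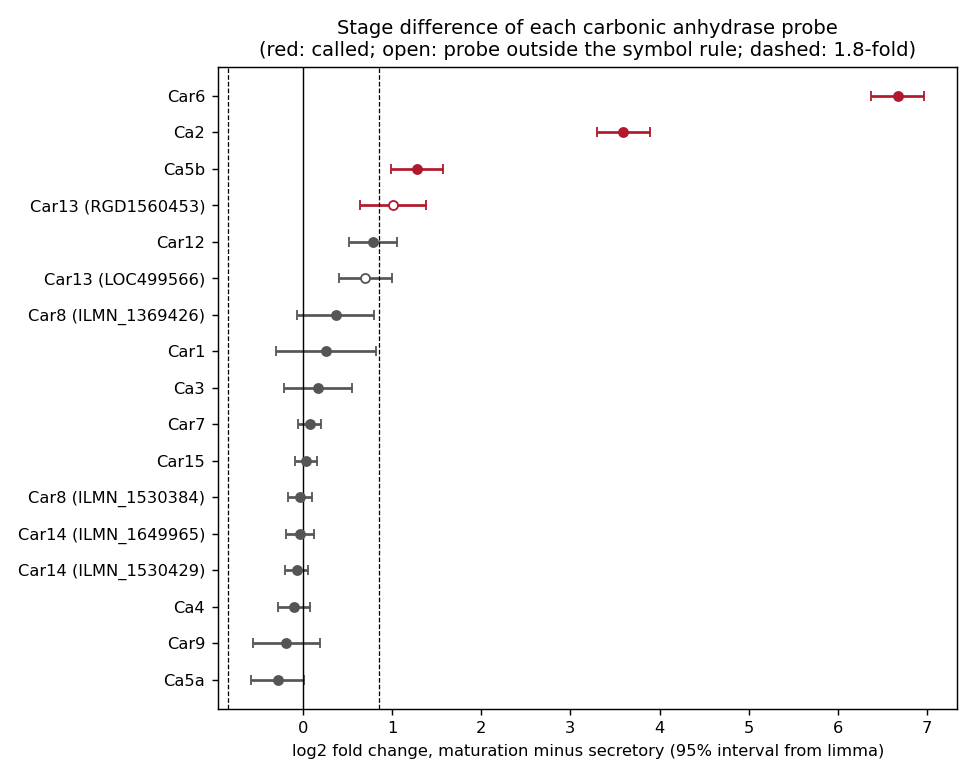
Difference between the stages of each carbonic anhydrase probe, as log2 fold change (maturation minus secretory) on the horizontal axis with its 95% interval from limma; red marks called probes, open circles mark probes outside the symbol rule, and dashed lines mark 1.8-fold. Car6, Ca2 and Ca5b lie to the right of the threshold, at 6.67, 3.59 and 1.27. The Car13 probe RGD1560453, outside the symbol rule, also lies there, at 1.01. No probe lies to the left of the lower threshold.

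The upstream sequences given here come from the RefSeq table of the GRCr8 rat assembly, which held 8 of the 13 genes, and are the 250 bases before the annotated start, 5′ to 3′ on the strand of the gene. They are shown for Ca5b, named Car5b in that table, and for Car12, the matched genes whose maturation-stage values all exceeded their secretory-stage values. The Car5b window is chrX:34118776-34119025, on the plus strand, and the Car12 window is chr8:76169565-76169814, on the plus strand.
Car5b: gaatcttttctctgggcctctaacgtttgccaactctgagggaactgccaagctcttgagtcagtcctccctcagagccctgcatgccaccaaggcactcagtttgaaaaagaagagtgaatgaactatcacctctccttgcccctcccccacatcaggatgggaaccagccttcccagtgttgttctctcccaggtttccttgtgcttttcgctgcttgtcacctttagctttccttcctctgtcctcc
Car12: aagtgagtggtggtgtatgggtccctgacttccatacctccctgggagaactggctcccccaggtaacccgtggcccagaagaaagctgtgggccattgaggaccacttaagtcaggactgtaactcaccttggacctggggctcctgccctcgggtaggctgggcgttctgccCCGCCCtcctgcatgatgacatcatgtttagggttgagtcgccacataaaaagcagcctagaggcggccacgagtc
Capitals mark the motif matches found. The search covered, on both strands, TATAAA (present in 12.9% of 33469 windows of this length), the GC box GGGCGG (30.5%), CCAAT (34%), CACGTG (5.59%), ACGTG, which lies within CACGTG (16.6%), and the cAMP response element TGACGTCA (1.59%). The Car12 window held 1 GC box, on the minus strand 76 bases before the start, and the Car5b window held none of these letters. GC content was 52% for Car5b and 58.4% for Car12. A match is a description of letters in this window only.

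Car6 was the most changed member. Carbonic anhydrase VI is the isoform that cells release, and it is best known from saliva and milk. Its normalized log2 signals were 11.88, 12.07, 12.08 and 12.30 in maturation replicates 1 to 4 and 5.28, 5.23, 5.35 and 5.78 in secretory replicates 1 to 4. The lowest maturation-stage value stood far above the highest secretory-stage value. Means were 12.08 ± 0.168 and 5.41 ± 0.251 (SD, n = 4 each), the difference was 6.67 (SE 0.131; 95% interval 6.38 to 6.97; adjusted p = 6.21e-09 with limma), and the fold change was 102 (83.2 to 125). Within single animals the difference was 6.61, 6.84, 6.73 and 6.52 in rats 1 to 4, so each rat showed nearly the whole of it.

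The secretory-stage signal of Car6 was close to background. It was detected on all 4 secretory arrays, but with detection p-values of 0.0315, 0.0255, 0.0133 and 0.00727, and its deposited signals there were 120 to 134, against 4446 to 6015 in the maturation stage. The mean deposited signals differed 40.5-fold. The size of the fold change depended on the processing. It was 33.1-fold without background correction and 131-fold without normalization between arrays, and Car6 was called under each alternative tried. The standard error over the 29 to 52 beads of a probe on an array was 2.73% to 3.87% of the signal.

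Ca2 was high in both stages and rose further in the maturation stage. Carbonic anhydrase II is among the fastest enzymes known, and it supplies protons and bicarbonate in the cytosol of acid- and base-secreting cells such as osteoclasts, kidney tubule cells and gland ducts. Its log2 signals were 13.48, 13.16, 13.13 and 13.31 in maturation replicates 1 to 4 and 9.41, 9.55, 10.004 and 9.74 in secretory replicates 1 to 4. The stages did not overlap, and all 8 arrays detected the probe with detection p-values listed at 0. Means were 13.27 ± 0.159 and 9.67 ± 0.258 (SD, n = 4 each), and the difference was 3.59 (SE 0.131; 95% interval 3.30 to 3.89; limma adjusted p = 1.05e-07), a 12.1-fold change (9.85 to 14.8).

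Rat 1 had the highest maturation-stage and the lowest secretory-stage value of Ca2, and the difference within an animal was 4.07, 3.61, 3.13 and 3.57 in rats 1 to 4. In deposited signals, Ca2 read 8846 to 13797 on the maturation-stage arrays and 627 to 954 on the secretory-stage arrays, a ratio of means of 14.3. The fold change was 10.96 without background correction and 16.03 with no normalization between arrays. The 95% intervals of Car6 and of Ca2 did not overlap on the log2 scale. The exact two-sided permutation test gave p = 0.0286 for each of Car6, Ca2 and Ca5b, which is the smallest value possible with 4 arrays against 4. That test exchanges arrays freely, and exchanges within the 4 rats alone cannot give a p below 0.125.

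**Figure D2:**
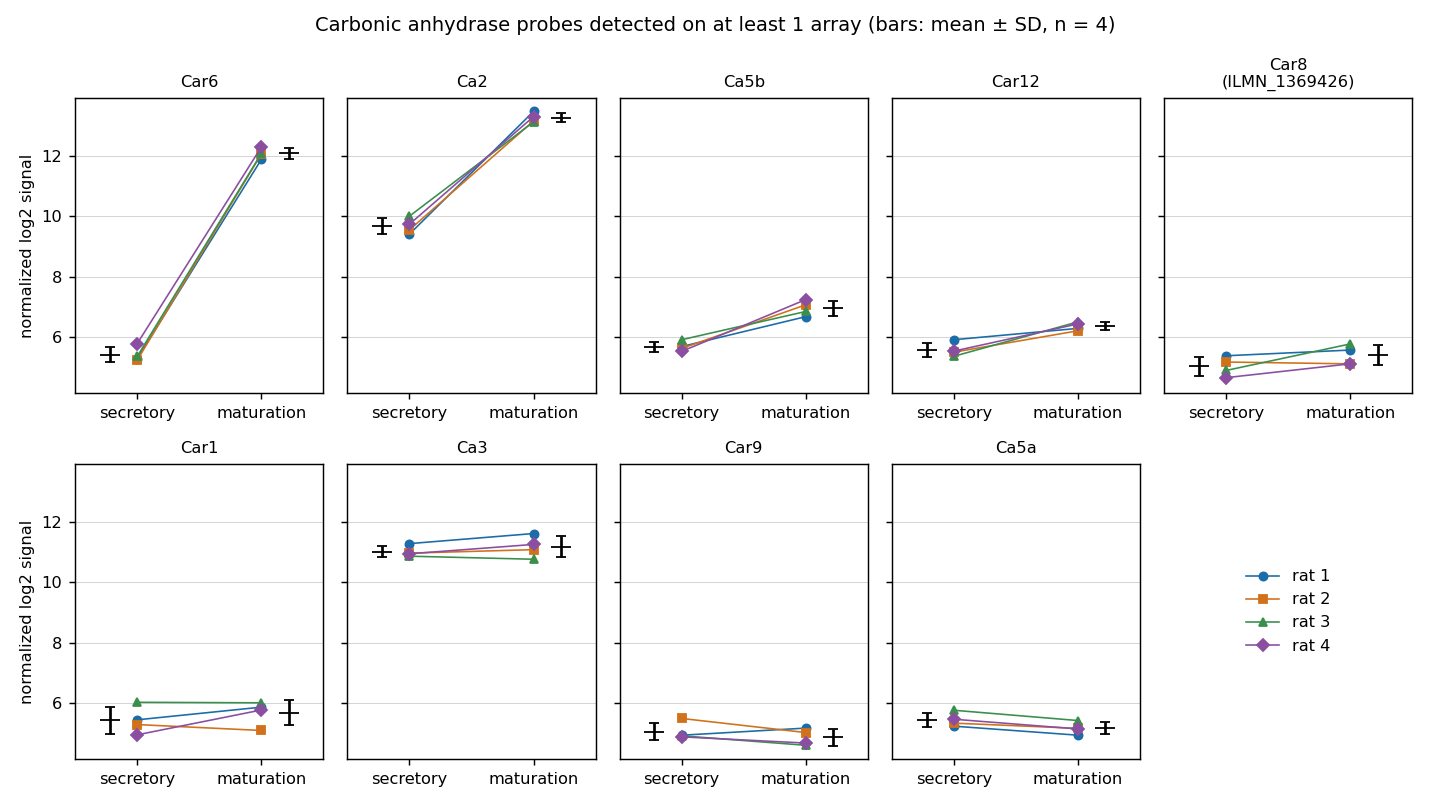
Normalized log2 signal (vertical axis) of the 9 carbonic anhydrase probes detected on at least 1 array, in the secretory and the maturation stage; each line joins the samples of 1 rat, and bars give the mean and SD of the 4 arrays of a stage. The 4 lines of Car6, Ca2, Ca5b and Car12 all slope upward without overlap between the stages, and those of Ca3 lie nearly flat between 10.76 and 11.61.

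Of the mitochondrial isoforms, Ca5b rose and Ca5a was not called. These enzymes sit in the mitochondrial matrix, where they provide bicarbonate to carboxylating enzymes. Ca5b (Car5b, on chromosome X) had log2 signals of 6.67, 7.07, 6.84 and 7.24 in maturation replicates 1 to 4 and of 5.68, 5.62, 5.91 and 5.52 in secretory replicates 1 to 4. Every maturation-stage array was above every secretory-stage array. The means were 6.96 ± 0.249 and 5.68 ± 0.165 (SD, n = 4 each), and the difference of 1.27 (SE 0.129; 95% interval 0.98 to 1.57) had a limma adjusted p of 5.84e-05. Rats 1 to 4 gave 0.99, 1.45, 0.94 and 1.72. The deposited signals were low in both stages, 211 to 273 and 127 to 140, and without background correction the fold change was 1.51, below the threshold of 1.8, with an adjusted p of 3.59e-05.

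Ca5a (Car5a), the mitochondrial form best known from liver, was not called. It had 4.93, 5.16, 5.41 and 5.13 in maturation replicates 1 to 4 and 5.23, 5.33, 5.76 and 5.46 in secretory replicates 1 to 4, and was detected on 3 and 4 arrays of the stages. The groups overlapped, yet in each of the 4 rats the maturation-stage value was the lower of the pair. The difference was -0.28 (95% interval -0.58 to 0.01; adjusted p = 0.163), and with the rat as a replicate block the adjusted p was 0.0148, with the fold still under 1.8. With no normalization between arrays the difference was 0.0053. The 95% intervals of Ca5b and Ca5a did not overlap, and the difference between them was not tested.

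Among the forms with a membrane anchor or a transmembrane stretch, Car12 was the one detected on all 8 arrays. Carbonic anhydrase XII is an enzyme of the outer face of the plasma membrane. Its log2 signals were 6.28, 6.21, 6.50 and 6.43 in maturation replicates 1 to 4 and 5.91, 5.50, 5.36 and 5.53 in secretory replicates 1 to 4. The stages did not overlap. The difference of 0.78 (SE 0.119; 95% interval 0.51 to 1.05) had a limma adjusted p of 7.92e-04, but at 1.72-fold it missed the fold threshold. Rat 1, whose secretory-stage value was the highest, gave the smallest difference within an animal at 0.38, and rats 2 to 4 gave 0.71, 1.14 and 0.90. Without secretory replicate 1 the difference was 0.90 and Car12 was called.

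The other surface forms were at or near background. Car9, a hypoxia-linked form, was detected on 2 maturation-stage and 1 secretory-stage arrays and differed by -0.19 (adjusted p = 0.525). Ca4, the lipid-anchored form of capillaries and kidney, Car15, and both probes of Car14 were not detected on any of the 8 arrays, and no stage comparison can be drawn from them. By adjusted p alone, without the fold threshold, 4 of the 15 probes were higher in the maturation stage, where 12.8% of all probes were, and 0 were lower, where 14% of all probes were. With the rat as a replicate block, Ca5a would count as lower by adjusted p alone. The same 4 probes (Car6, Ca2, Ca5b and Car12) were those with all maturation-stage values above all secretory-stage values, which 13.1% of all probes showed.

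Of the remaining cytosolic members, Ca3 had a bright signal and was not called. Carbonic anhydrase III is a slow form that is abundant in skeletal muscle, liver and fat. Its log2 signals were 11.61, 11.08, 10.76 and 11.25 in maturation replicates 1 to 4 and 11.28, 10.96, 10.86 and 10.94 in secretory replicates 1 to 4. The stages overlapped, and rat 1 was the highest and rat 3 the lowest in each stage. The difference was 0.16 (95% interval -0.21 to 0.54; adjusted p = 0.589 with limma). Its interval lies below 1.8-fold, which is 0.848 on the log2 scale. With no normalization between arrays, where the median of all probes moved to 0.127, the difference of Ca3 was 0.62 with an adjusted p of 0.0463, and it was not called because the fold was under 1.8.

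**Figure D3:**
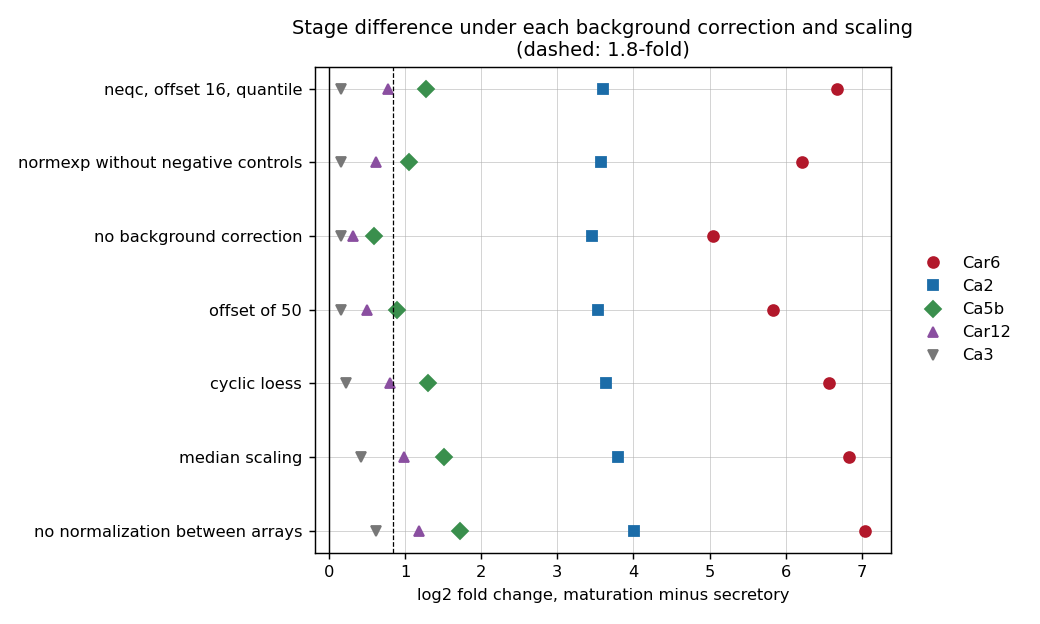
Stage difference of 5 members (horizontal axis, log2 fold change, maturation minus secretory) under each background correction and each normalization between arrays (rows); the dashed line marks 1.8-fold. Ca2 stays between 3.45 and 4.00, Car6 ranges from 5.05 to 7.04, and Ca5b and Car12 cross the threshold with the processing.

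Car1, the abundant carbonic anhydrase of red cells, was dim, with log2 signals of 5.09 to 6.003 in the maturation stage and 4.94 to 6.02 on the secretory-stage arrays. It was detected on 4 and 3 arrays, and the difference of 0.26 (SE 0.249; 95% interval -0.30 to 0.82) had an adjusted p of 0.565. Car8, a related protein that lacks enzyme activity, was read by 2 probes. ILMN_1369426 was detected on 4 maturation-stage and 2 secretory-stage arrays and differed by 0.37 (95% interval -0.06 to 0.80; adjusted p = 0.222), while ILMN_1530384 was not detected on any array. Car7, a cytosolic form known from brain, was not detected either.

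**Figure D4:**
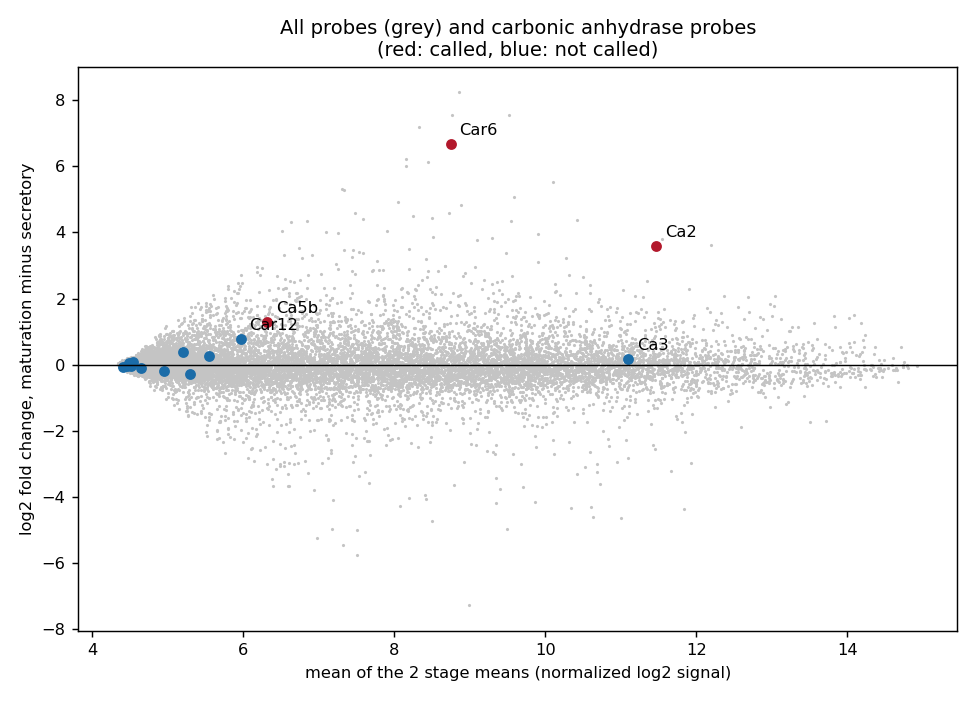
Difference between the stages (vertical axis, log2 fold change, maturation minus secretory) against the mean of the stage means (horizontal axis, normalized log2 signal) for all 22523 probes in grey and the 15 carbonic anhydrase probes in red (called) or blue (not called). Car6 and Ca2 lie at the upper edge of the cloud, Ca3 lies near 0 at high signal, and the undetected members cluster near 0 at the lowest signals.

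In the gene table of the current rat assembly, Car2, Car3, Car1 and Car13 are 4 consecutive genes on chromosome 2, with 0 other genes between them. Of these neighbours, Car2 rose, while Car3 and Car1 were not called. Car2, named Ca2 on the array, differed by 3.59, its neighbour Car3 by 0.16 and the next gene, Car1, by 0.26. Car13, a cytosolic form at the end of this row, is read by probes whose symbols do not follow the carbonic anhydrase pattern, so it was outside the 15 and was looked up after its values were seen. The probe RGD1560453 had log2 signals of 7.63, 8.06, 8.29 and 8.11 in maturation replicates 1 to 4 and of 7.31, 6.85, 6.73 and 7.17 in secretory replicates 1 to 4, a difference of 1.01 (SE 0.163; adjusted p = 0.00113), and was called at 2.01-fold. The probe LOC499566 differed by 0.70 (SE 0.131; adjusted p = 0.00289), which at 1.62-fold was not called. The Car13 probes therefore had the same sign and fell on different sides of the fold threshold. The other 2 probes annotated as carbonic anhydrase-like, LOC288758 and LOC360599, were not detected.

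Genes whose pattern over the 8 arrays was most like that of Ca2 and Car6 were found by the root mean square distance between centred log2 signals, among probes detected on at least 4 arrays. For Ca2 these were Mmp13, a collagenase, at a distance of 0.233, Sdfr2 (Frrs1) at 0.238 and Cipar1 (Parm1) at 0.257, with stage differences of 3.38, 3.54 and 3.46. Sdfr2 was detected on 1 secretory-stage array, so its difference rests on values near the background. For Car6 they were Klk4 at 0.275, the phosphate cotransporter Slc34a2 at 0.393 and the potassium channel Kcnn4 at 0.403. The Klk4 probe in question was ILMN_1370608, the one undetected in the secretory stage, so its distance rests there on values not above background. The difference of Kcnn4 was 6.14. Without background correction 2 of the 3 nearest probes of Car6 were shared with this list and 0 of the 3 of Ca2. The distance counts the stage difference as well as the spread within a stage.

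Carbonic anhydrases work beside carriers that move their products across membranes. A list of 64 genes for bicarbonate, chloride and proton transport had probes for 60, and 64 probes in all. It was chosen with earlier results of these data known, so its shares are given as a description only. Of these 64 probes, 17 (26.6%) were called higher, where 4.6% of all probes were, and 1 lower, where 3.15% were. The other 46 were not called, and the median difference was 0.13 beside -0.01 over all probes. By class, 8 of 22 probes for subunits of the vacuolar proton pump were higher, 3 of 10 for anion exchangers of the Slc26 family, 2 of 10 for bicarbonate carriers of the Slc4 family, 2 of 11 for sodium-proton exchangers and their regulator, 1 of 7 for chloride channels, 1 of 2 for water channels and 0 of 2 for proton-potassium pumps. The anion exchangers supplied 3 of the 4 largest rises by the fitted difference, of which Slc26a1 and Slc26a7 were at or near background in the secretory stage.

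Slc26a1, a sulfate and bicarbonate exchanger, had 10.40, 9.91, 9.96 and 9.63 in maturation replicates 1 to 4, had no detection in the secretory stage and was higher by at least 30.5-fold over the detection floor of the background-corrected values (limma adjusted p = 3.07e-08). Its mean deposited signals, which include the background, differed 12.1-fold. Slc26a7, a chloride and bicarbonate transporter, differed by 2.95 (SE 0.135; adjusted p = 3.86e-07) and was detected on 1 secretory-stage array, so that its size rests on values near the background. The mean deposited signals of Slc26a7 differed 3.09-fold. Slc26a6, another chloride and bicarbonate exchanger, had 10.20 to 10.82 against 7.99 to 8.25, a difference of 2.43 (SE 0.125; adjusted p = 7.97e-07). Atp6v0d2, a proton pump subunit that is abundant in osteoclasts, differed by 2.88 (SE 0.251; adjusted p = 2.21e-05), and rat 1 gave 4.07 against 2.13 to 2.89 in the others. Its secretory-stage signals were also near the background, at 119 to 153 as deposited, and the mean deposited signals differed 4.47-fold. The only probe of the list called lower was that of Slc4a9, of the bicarbonate carrier family, which fell by 1.31 (SE 0.174; adjusted p = 3.37e-04), a call that was lost without background correction and with no normalization between arrays. By adjusted p alone 26 of the 64 probes were higher, where 12.8% of all probes were, and 4 were lower, where 14% of all probes were. Beside Slc4a9 the lower ones were Clcn3 (-0.55), Atp6v0a4 (-0.50) and Atp6v1d (-0.20), looked up after their values were seen.

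Several carbonic anhydrases are known from cells other than ameloblasts, so marker lists of such cells were read beside the members, as the sum of the normalized signals on the linear scale. The lists were chosen with earlier results of these data known. Beside the counts below, 4.6% of all probes on the array were called higher and 3.15% lower. Osteoclasts use Ca2. The osteoclast list held 10 symbols, and 5 of its genes had a probe. Of these 5 probes, 3 (Ctsk, Mmp9 and Tm7sf4) were called higher. Oscar (RGD1559897) differed by 0.11 and was not called, and Calcr, the calcitonin receptor, was undetected on every array. The sum was 14724 to 18938.8 on maturation-stage arrays and 5964.47 to 8483.98 on secretory-stage arrays. Ctsk made up most of it, with a mean log2 signal of 13.92 in the maturation stage, against 10.17 for Mmp9, the next brightest. Macrophage and leukocyte markers were called higher for 4 of 7 probes, with sums of 8881.2 to 11448.2 and 3328.63 to 4023.07. Aif1, at 1.797-fold, and Itgam were not called, and a second Lcp1 probe was undetected on every array. The sums of both lists were higher in the maturation stage, as were those of the fat cell and the neuron and Schwann cell lists below. The part of any of these cells in the rise of Ca2 was not tested.

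Salivary gland tissue is known for Car6. Of 11 salivary gland probes, 0 were called and none was detected on 4 arrays, 7 were undetected on every array (Amy1, Muc19, Pip, Prlr, Psp, Vcsa1 and VCS-beta1), and the sums were 262.249 to 277.362 on maturation-stage arrays and 270.984 to 281.765 on the others. Red cells are known for Car1 and Ca2. Of 10 erythroid probes none was called, although Hba-a1 and Hbb were bright in each stage, the sums of 48584.6 to 55751.8 and 42206.1 to 58552.3 overlapped, and Gata1, Klf1 and Rhag were undetected. Alas2, the first enzyme of haem synthesis in red cell precursors, was the exception to this overlap, with 5.42 to 6.11 in the maturation stage and 6.16 to 8.04 on the secretory-stage arrays, a difference of -1.07 (adjusted p = 0.0578) that was not called.

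Skeletal muscle and fat are known for Ca3. No muscle probe of 8 was called. The muscle sums overlapped, at 292.9 to 1284.4 on maturation-stage arrays and 312.6 to 709.8 on secretory-stage arrays, and were highest in rat 4 in each stage. Of 8 fat cell probes, Cfd rose by 1.48 and Adipoq, detected on all 4 secretory-stage arrays and on none of the maturation stage, was called lower, and the sums were 3054.18 to 3920.46 and 1725.69 to 1899.22. Of 8 neuron and Schwann cell probes, Snap25, S100b and Pmp22 were called higher and Tubb3 lower, and Nefl was undetected. The sums were 5328.95 to 6708.78 and 3064.44 to 3893.79. Pmp22 made up most of them, with mean log2 signals of 12.32 and 11.45. The part of these cells in the values of the members was not tested.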

How the data were processed

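RNA from 4 rats, each giving a secretory-stage and a maturation-stage sample, was hybridized to 8 RatRef-12 v1 arrays. The deposited table held mean bead signals as intensity, neither background-corrected nor normalized, with detection p-values, bead numbers and bead standard errors made by the authors; the summarisation software and genome build are not given in the sources used here. Groups came from titles, descriptions and tissue labels.

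Signals were processed in R 4.3.3 with limma 3.58.1: neqc with negative controls inferred from detection p-values, offset 16, quantile normalization and log2. All 22523 probes were fitted with lmFit and eBayes, unpaired, without a filter. The methods name a Student test; limma replaced it and the methods' test was an alternative. Where a stage had no detected array, the fold is a lower bound against the dimmest detected probe of each of its arrays, or the probe's own value if higher. A self-test on simulated arrays was run before the fit. Figures were drawn with Python 3.11.15 and matplotlib 3.10.9. The number of arrays limits the precision.

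Replicate numbers pair the samples because each rat gave both stages. Over 11233 probes, deviations of the samples of a rat from the stage means correlated at 0.195, 0.129, 0.219 and 0.234, against means of -0.0833 to -0.0426 with other rats.

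The members, marker lists and partner list were chosen with earlier results of these data known. Every member was named; of the partners, the 4 largest rises and up to 4 largest falls among called probes; of each marker list, examples among the probes detected on at least 1 array, picked after their values were seen, and undetected ones by name only; and the 3 probes most like Ca2 and Car6. The 4 probes outside the symbol rule were named after their values were seen. Current symbols came from a GRCr8 gene table by gene ID (17430 probes matched, 13 of the 15 members); chromosomes without coordinates are those of the array annotation, whose build is not stated. The alternatives were other background corrections, offsets and normalizations, a detection filter, the methods' test, the rat as a block, other thresholds and each array left out in turn.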

Additional observations from a re-analysis of the deposited data

Results flagged for a closer look

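Among 18 sets of the 4 arrays of a stage, for member probes detected on at least 1 array of that stage, 1 held a value apart from the others, where chance gives 0.9 of 18 sets. Car9 had a normalized log2 signal of 5.48 in secretory replicate 2, against 4.87 to 4.93 on the other secretory-stage arrays. That array was also the only secretory-stage array that detected Car9, with a detection p of 0.00970, and its deposited signal there was 128 against 112 to 114.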

How the results depend on the processing

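The calls of Ca2 and Car6 stood under every alternative run, and no member was called lower under any. Ca5b lost its call only without background correction (0.60), and Car12 gained one with median scaling (0.99), with no normalization between arrays (1.19), with no fold threshold and without secretory replicate 1 (0.90). Over single arrays left out, 3 to 4 members were called higher and 0 lower, and the log2 differences ranged from 3.48 to 3.69 for Ca2, 6.59 to 6.80 for Car6, 1.17 to 1.36 for Ca5b and 0.72 to 0.90 for Car12. Members called higher numbered 2 without background correction and at most 4 otherwise. With the rat as a replicate block the counts were 3 members higher and 0 lower, 1037 and 713 of all probes and 17 and 1 partner probes, and no member's call changed. Near 0, signs turned for dim members. With no normalization between arrays these were Ca4 (0.0021), Ca5a (0.0053), Car9 (0.0175), Car14 ILMN_1649965 (0.0258) and Car8 ILMN_1530384 (0.0406); with median scaling, Car15 (-0.0969) and Car7 (-0.0525); and Car14 ILMN_1649965 without maturation replicate 1 (0.0002) and without secretory replicate 2 (0.0055), in a range of -0.0628 to 0.0055 over single arrays left out. Of all probes, 1035 were called higher and 710 lower. These numbers were 528 and 399 without background correction, 1610 and 465 with median scaling, 2268 and 332 with no normalization and 2888 and 3163 with no fold threshold, and over single arrays left out 1011 to 1068 and 694 to 752. The share of higher among called probes was 59.3%, 77.6% with median scaling and 87.2% with no normalization, where the median of all probes was 0.127. Partner probes were 26 higher and 4 lower with no fold threshold, 0 lower without background correction or with no normalization, and 15 to 17 higher and 1 to 2 lower over single arrays left out (2 without maturation replicate 2). At a detection p below 0.01, 3 members (Ca5a, Car8 ILMN_1369426 and Car9) were detected in 1 stage alone, against 0 at 0.05. Low signal over background limits Car6 in the secretory stage and 6 undetected probes. The causes of these shifts were not tested.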
